A study of Mus musculus with 6 samples.

Results

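NOVA clusters in coding sequence (CDS) are the positions where most of the crosslinked RNA of a NOVA1 or NOVA2 cluster was annotated as protein-coding exon sequence. A cluster, a stretch of overlapping CLIP tags on 1 strand, was a member when CDS of protein-coding transcripts (GENCODE vM1) covered more of its nucleotides on its own strand than any other class, with CDS counted first where transcripts disagreed. The rule found 864 of 9988 NOVA1 clusters (8.65%) and 539 of 36591 NOVA2 clusters (1.47%), in 512 and 420 genes. Merged by position, the 1403 members made up 1076 stretches of the mouse genome (NCBIM37, mm9).

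The clusters came from HITS-CLIP, in which ultraviolet light crosslinks RNA to protein and the RNA recovered with an antibody is sequenced. The tissue was the cortex of wild-type CD1 mice at embryonic day 18.5, with no allele, treatment or manipulation in either group. The groups were defined by the precipitated protein, NOVA1 or NOVA2, with 3 libraries each, and the authors pooled the libraries into 1 tag count per cluster. No value per library was used, so the variation among libraries is unknown for every value, no test was run, and 95% intervals cover counting error alone.

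NOVA1 and NOVA2 are closely related neuronal RNA-binding proteins. Their KH domains recognise clusters of YCAY, where Y is U or C, so that the motif takes 4 forms. Those that begin with U are UCAU and, with another last letter, UCAC. Those that begin with C are CCAU and, with another last letter, CCAC. They are known as regulators of alternative splicing: binding in the intron after an alternative exon tends to promote its inclusion, and binding within the exon or before it tends to promote skipping. NOVA also binds 3' UTRs, and a cluster in CDS can lie on spliced mRNA, on unspliced RNA or on both.

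The sequences below belong to clusters that are described in this section. Each is the central part, up to 120 nt, of the CDS in a named cluster, read 5′ to 3′ on the cluster's strand, with every YCAY in capitals. The first set shows NOVA2 clusters of high tag count, or on cassette exons, that the NOVA1 list shared. They lie in Shank1 (chr7:51607099-51607218, plus strand), in the cassette exon 26 of Neo1 (chr9:58732296-58732415, minus strand) and in exon 13 of Trp53bp1 (chr2:121054342-121054443, minus strand).
Shank1, NOVA2 cluster: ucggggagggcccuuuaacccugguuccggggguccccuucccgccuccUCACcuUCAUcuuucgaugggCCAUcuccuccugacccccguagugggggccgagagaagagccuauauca
Neo1 exon 26, NOVA2 cluster: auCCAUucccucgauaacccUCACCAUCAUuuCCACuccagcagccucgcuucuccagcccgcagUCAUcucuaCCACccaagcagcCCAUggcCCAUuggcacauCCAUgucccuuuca
Trp53bp1 exon 13, NOVA2 cluster: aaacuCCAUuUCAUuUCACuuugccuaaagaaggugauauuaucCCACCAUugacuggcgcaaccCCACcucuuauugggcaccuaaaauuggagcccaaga

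The second set shows some of the NOVA1 clusters of high tag count that the NOVA2 list lacked or held at far fewer tags. They lie in Reln (chr5:21448439-21448558, minus strand), Plxna1 (chr6:89292592-89292696, minus strand), Nlgn3 (chrX:98510511-98510630, plus strand) and Crmp1 (chr5:37677635-37677754, plus strand).
Reln, NOVA1 cluster: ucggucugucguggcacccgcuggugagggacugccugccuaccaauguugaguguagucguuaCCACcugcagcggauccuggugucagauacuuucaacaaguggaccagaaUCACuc
Plxna1, NOVA1 cluster: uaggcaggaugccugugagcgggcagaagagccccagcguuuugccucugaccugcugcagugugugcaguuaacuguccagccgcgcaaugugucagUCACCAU
Nlgn3, NOVA1 cluster: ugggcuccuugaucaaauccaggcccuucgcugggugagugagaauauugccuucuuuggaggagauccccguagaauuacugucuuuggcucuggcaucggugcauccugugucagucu
Crmp1, NOVA1 cluster: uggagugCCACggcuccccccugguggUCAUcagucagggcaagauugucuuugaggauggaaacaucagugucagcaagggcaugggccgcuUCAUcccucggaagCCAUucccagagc
The windows of the first set held 3, 10 and 6 copies of YCAY, and those of the second set 2, 2, 0 and 4. Windows not printed, of NOVA1 clusters named for the same reasons, held 3 (Ptprs), 5 (Tubb3), 3 (Grin2b), 2 (Mtap1b) and 6 (Tuba1a). Single windows of the sets thus overlapped in number, and the printed NOVA1 windows do not stand for all of their kind. The Shank1 window is a small part of a cluster of 446 nt with 28 copies.

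Because members were chosen by their CDS nucleotides, a high share of CDS in them follows largely from the rule and is no check of it. CDS made up 96.3% of the nucleotides in NOVA1 members and 94.3% in NOVA2 members, and 605 (70.02%) and 366 (67.9%) lay entirely in CDS. Some intron was included in 193 NOVA1 members (22.3%) and 128 NOVA2 members (23.7%), and some 3' UTR in 54 and 42. In the transcript with the longest CDS of their gene, 852 NOVA1 members (98.6%) and 518 NOVA2 members (96.1%) were still coding. With UTR counted before CDS, 41 NOVA1 and 27 NOVA2 members became 3' UTR clusters, and 22 and 15 became 5' UTR clusters. A further near-identical copy elsewhere in the genome existed for 85 NOVA1 members (9.84%) and 59 NOVA2 members (10.9%), and the tags of these positions are uncertain because the counting could have split them. On the mitochondrial chromosome lay 23 NOVA1 and 12 NOVA2 members.

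The counts of the members summed to 21849 tags for NOVA1 and 17265 for NOVA2, 7.17% and 1.32% of the sums over the lists. A count can be the peak height of a cluster rather than all of its tags, and summed tags of genes share this limit. The median count was 15 tags for NOVA1 (interval 14 to 16, quartiles 12 and 24) and 17 for NOVA2 (16 to 18, quartiles 12 and 32). NOVA1 members were 142 nt wide in the median and NOVA2 members 104 nt. The distribution was thus concentrated near the threshold of 10 tags, with 77 NOVA1 and 70 NOVA2 members at 50 or more tags.

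The 6 strongest CDS clusters of each list overlapped clusters of the other list, although the leading positions were not all the same. The 6 highest NOVA1 members were, in order, in mt-Cytb (430 tags), Peg10 (397), mt-Nd5 (341), Mtap2 (320), mt-Nd2 (257) and Shank1 (243). All 6 overlapped the NOVA2 list, where the highest overlapping cluster had 269, 149, 181, 217, 102 and 567 tags. The mt genes encode subunits of the respiratory chain, Peg10 is an imprinted gene derived from a retrotransposon, Mtap2 (Map2) encodes a dendritic microtubule-associated protein, and Shank1 a scaffold of the postsynaptic density. The Mtap2 cluster (chr1:66485376-66485978) spanned the end of the reading frame, with 348 nt of CDS and 255 nt of 3' UTR, and was classed as 3' UTR when UTR was counted first. The mt-Nd2 cluster held 83 nt of CDS in its 188 nt. The mt-Cytb and mt-Nd5 clusters had 1 and 2 further copies in the genome.

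The highest NOVA2 member was the same stretch of Shank1 (chr7:51606936-51607381, 567 tags), inside exon 24 of 25, a coding exon of 3088 nt. It held 28 copies of YCAY. Then came 3 clusters in exon 2 of 20 of D630045J12Rik with 381, 276 and 255 tags, exon 2 of 2 of Rnf139 (308 tags) and mt-Cytb (269 tags). Rnf139 encodes a ubiquitin ligase of the endoplasmic reticulum. The highest overlapping NOVA1 clusters at the 3 D630045J12Rik positions had 131, 212 and 64 tags, and that at Rnf139 had 237. All 6 of these NOVA2 members overlapped NOVA1 clusters.

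Despite this agreement at the top, most NOVA1 clusters in CDS had no NOVA2 counterpart. Of the 864 NOVA1 members, 329 (38.1%, Wilson 95% interval 34.9 to 41.4) shared 1 nt or more with a NOVA2 cluster on their strand, against 80.1% of all NOVA1 clusters. Of the 539 NOVA2 members, 324 (60.1%, 55.9 to 64.2) overlapped a NOVA1 cluster, against 22.1% of all NOVA2 clusters. CDS was thus the class where the smaller list overlapped the larger one least: NOVA1 clusters in 3' UTR overlapped in 73.9% of cases and those in introns in 95.5%. The difference from 3' UTR was -35.9 percentage points (Newcombe 95% interval -39.3 to -32.3). For NOVA2 members the difference from 3' UTR was small, -4.38 points (-8.80 to -0.09), while intron clusters of NOVA2 overlapped in only 14.1% of cases. Members that overlapped the other list are called shared below, and the rest unshared.

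**Figure D1:**
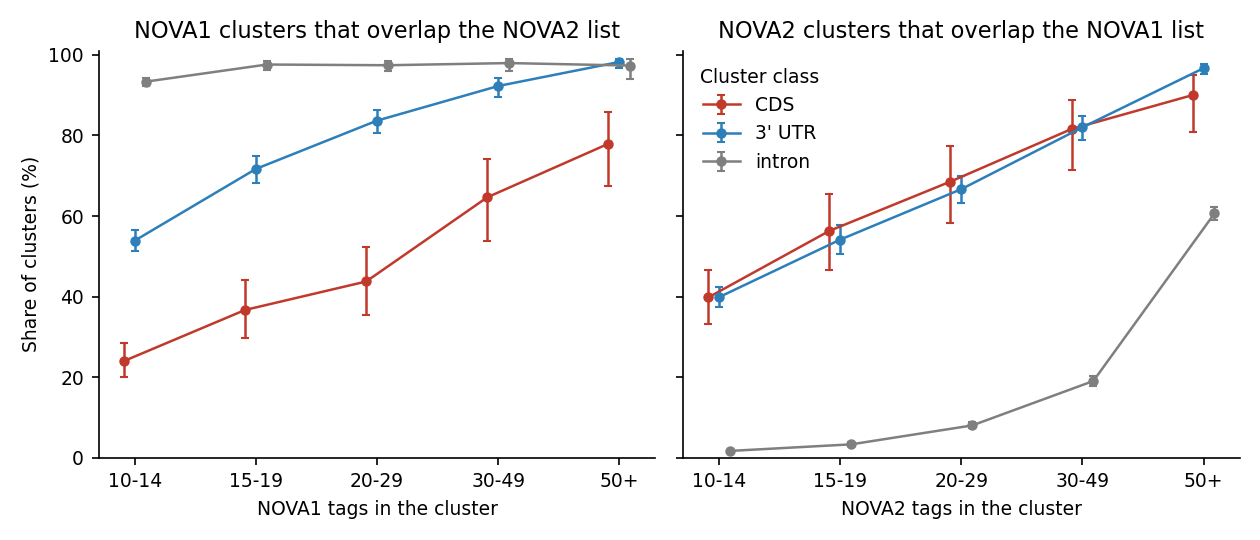
Share of clusters that overlapped the other list on the same strand (y axis, percent) by tags in the cluster (x axis), for CDS, 3' UTR and intron clusters of NOVA1 (left) and NOVA2 (right). Points are shares and bars Wilson 95% intervals. NOVA1 CDS clusters stayed below the other classes in every tag bin, from 24.0% to 77.9%, while NOVA2 CDS clusters ran close to 3' UTR clusters, from 39.8% to 63 of 70 clusters.

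The low share of NOVA1 members was not limited to weak clusters. It rose with the tag count, from 24.0% at 10 to 14 tags through 36.7%, 43.8% and 64.6% to 77.9% (67.5 to 85.7) at 50 or more tags, and 3' UTR clusters ran from 53.9% to 98.2% over the same bins. At 50 or more tags CDS was still 20.3 points below 3' UTR (-20.3, interval -30.8 to -12.3). The share depends strongly on how deep the NOVA2 list goes. With the NOVA2 list cut to 25 or more tags it was 19.3%, and when NOVA2 was cut to as many clusters as NOVA1 has it was 15.05%. The share of NOVA2 members that overlapped NOVA1 then rose to 83.0% and 85.5%.

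Shared members had more tags than unshared ones. The median was 20 against 14 tags for NOVA1 and 22.5 against 13 for NOVA2. Where a NOVA1 member was shared, its NOVA2 partner was also a CDS cluster in 314 of 329 cases (95.4%). The unshared NOVA1 members mostly sat in genes that NOVA2 bound elsewhere. Of the 535, 460 (86.0%) lay in a gene with some NOVA2 cluster, 328 (61.3%) in a gene with an intron cluster and 280 (52.3%) in a gene with a 3' UTR cluster of NOVA2. A NOVA2 cluster lay within 1000 nt of 127 of them (23.7%) and within 10000 nt of 357 (66.7%). Of the shared NOVA1 members, 196 (59.6%) lay in a gene with an intron cluster and 192 (58.4%) in a gene with a 3' UTR cluster of NOVA2. These shares were thus not particular to unshared members. Of all coding genes, 22.5% held some NOVA2 cluster and 12.6% some NOVA1 cluster. Of the 215 unshared NOVA2 members, 135 (62.8%) lay in a gene with some NOVA1 cluster.

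The 5 unshared NOVA1 members with most tags had 78 to 167 tags. They were in exon 8 of 33 of Ptprs (chr17:56575069-56575568, 167 tags), a receptor tyrosine phosphatase of axons, in exon 4 of 4 of Tubb3 (99 tags), the neuronal beta-tubulin, in exon 46 of 65 of Reln (91 tags), the secreted protein reelin that organises cortical layers, in exon 5 of 32 of Plxna1 (80 tags), a semaphorin receptor, and in exon 9 of 13 of Grin2b (78 tags), an NMDA receptor subunit. All 5 lay entirely in CDS, and Tubb3 had 1 further copy in the genome. The Reln and Plxna1 clusters held 2 copies of YCAY each in 154 and 105 nt, visible in the sequences above. The Ptprs, Tubb3 and Grin2b clusters held more, 13 in 500 nt, 20 in 634 nt and 7 in 214 nt.

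Of the 5 unshared NOVA2 members with most tags, 3 reached into an intron. The first was in Mtss1 (chr15:58778854-58779046, 83 tags), a membrane and actin-binding protein, with 166 nt of CDS and 27 nt of intron, and the second in Robo1 (chr16:72956476-72956680, 77 tags), a Slit receptor, with 161 nt of CDS and 44 nt of intron. Both positions were intron in the transcript with the longest CDS. The others were in Gpr45 (57 tags), an orphan G protein-coupled receptor, with 139 nt of CDS and 96 nt of 3' UTR, in Mapt (55 tags), which encodes tau, with 90 nt of CDS and 88 nt of intron, and in Ptprk (54 tags), a receptor tyrosine phosphatase, entirely in CDS. Of the unshared NOVA2 members, 11 of 215 (5.12%) were intronic in the longest coding transcript of their gene, and of the shared ones 0 of 324, which allows a share of up to 0.926%. Among unshared and shared NOVA1 members there were 2 and 1 such clusters.

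At positions bound in both lists, CDS had more NOVA1 tags relative to NOVA2 than 3' UTR or introns. In 285 CDS pairs of 1 NOVA1 and 1 NOVA2 cluster that overlapped only each other, the log2 of NOVA1 over NOVA2 tags had a median of -0.12 (order-statistic 95% interval -0.24 to -0.04). The median over all 6770 such pairs was -1.34, so that CDS lay 1.22 above it (1.10 to 1.30), 3' UTR 0.94 above and intron 0.70 below. NOVA1 had the higher count in 107 CDS pairs (37.5%), against 14.8% of all pairs. Counts were not scaled to the tags in each list, 304703 for NOVA1 and 1309270 for NOVA2, and the threshold of 10 tags on both sides bounds the ratio for weak clusters. Between pairs with the NOVA1 cluster inside the exon (211 pairs, -0.15) and those with it across a splice site (74 pairs, -0.10) the median differed by less than the width of their intervals.

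**Figure D2:**
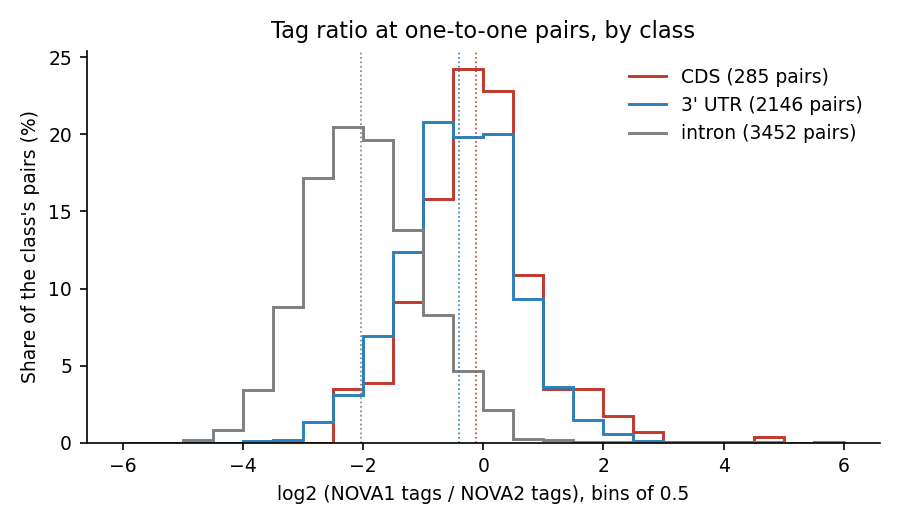
Share of one-to-one pairs (y axis, percent of the class) by log2 ratio of NOVA1 to NOVA2 tags (x axis, bins of 0.5) for CDS, 3' UTR and intron pairs. Dotted lines mark the class medians of -0.12, -0.40 and -2.04, and CDS lies farthest towards NOVA1.

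The CDS pair tilted most towards NOVA1 was in exon 12 of 14 of Crmp1, which encodes a cytosolic protein of semaphorin signalling, with 238 NOVA1 and 10 NOVA2 tags (log2 ratio 4.57). Next came a cluster in exon 5 of 7 of Mtap1b (Map1b), which encodes an axonal microtubule-associated protein, with 82 and 11 tags. Nlgn3, a postsynaptic adhesion protein, had 71 and 12 tags at a cluster without any YCAY. Tuba1a, an alpha-tubulin of young neurons, had 71 and 13 tags at a position with 11 further copies in the genome. These 4 ratios were between 2.45 and 4.57, and the first 3 clusters had no further copy.

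The pair tilted most towards NOVA2 was in Mc4r, a melanocortin receptor, with 11 NOVA1 and 62 NOVA2 tags (log2 ratio -2.49). Trp53bp1, which encodes a protein of the DNA break response, had 19 and 102 tags in exon 13 of 28. Rnf44, a RING finger gene, had 32 and 167 tags, and Lamb2, which encodes a laminin chain, 10 and 50. Relative to the median of all pairs these 4 lay 0.98 to 1.16 lower, and the 4 highest lay 3.79 to 5.91 above it. The CDS median itself lay 1.22 above that median, and the threshold of 10 tags bounds the ratio on both sides. The distances therefore cannot be read as a skew of the CDS pairs. On the mitochondrial chromosome NOVA1 had the higher count in 6 of 7 CDS pairs.

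**Figure D3:**
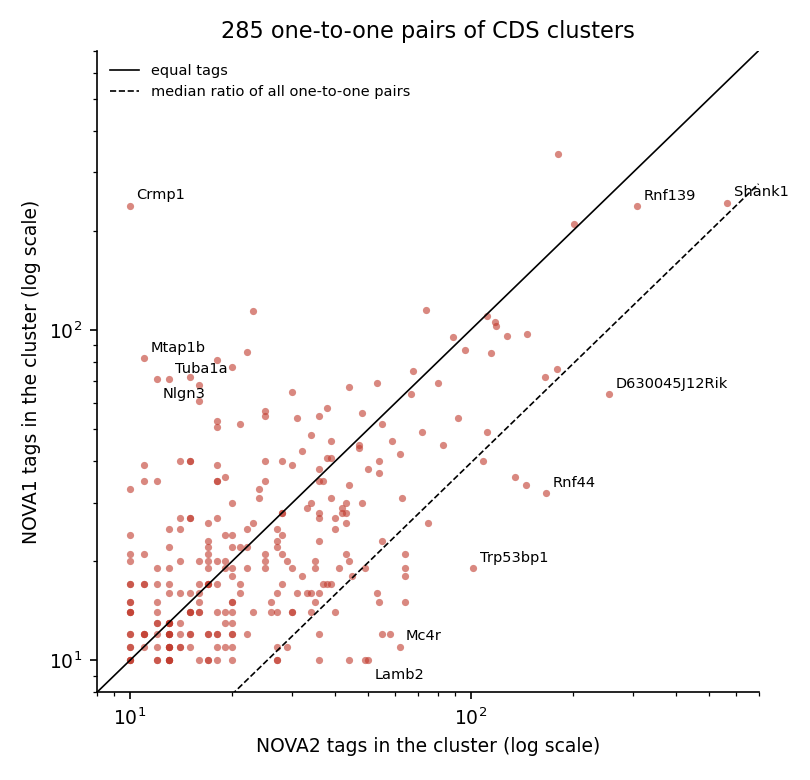
NOVA1 tags (y axis, log scale) against NOVA2 tags (x axis, log scale) for the 285 one-to-one CDS pairs, 1 point per pair. The solid line marks equal tags and the dashed line the median ratio of all 6770 pairs, above which 259 CDS pairs lie.

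Along the transcript, shared members of both lists and unshared NOVA2 members were more frequent in the last 20% of the coding sequence than an even share. Unshared NOVA1 members were not. Of the NOVA1 members, 198 (22.9%, 20.2 to 25.8) had their midpoint in the last 20% of the CDS and 136 (15.7%, 13.5 to 18.3) in the first 20%. For NOVA2 these were 146 (27.1%, 23.5 to 31.0) and 86 (15.96%, 13.1 to 19.3). A midpoint outside the CDS was set to the nearest edge of the coding part of its exon. Clusters that ran past the stop codon were counted at the end. Some 3' UTR was held by 54 NOVA1 and 42 NOVA2 members, and some 5' UTR by 15 and 7. Shares of the last 20% without these clusters were not computed. By set, the last 20% of the CDS held 28.9% (24.2 to 34.0) of shared and 19.3% (16.1 to 22.8) of unshared NOVA1 members, and 27.8% (23.2 to 32.9) of shared and 26.05% (20.6 to 32.3) of unshared NOVA2 members. The last coding exon held 152 NOVA1 members (17.6%, 15.2 to 20.3) and 120 NOVA2 members (22.3%, 18.95 to 25.96), while last coding exons made up 10.4% and 11.01% of the coding nucleotides of the same transcripts. Among clusters with at least 90% of their nucleotides in CDS the shares were 14.1% and 18.4%. Shared NOVA1 members were in the last coding exon more often than unshared ones, 22.8% against 14.4% (difference 8.404 points, interval 3.10 to 13.9). Last coding exons made up 10.7% and 10.1% of the coding nucleotides of their transcripts. The share of unshared NOVA1 members (14.4%, 11.7 to 17.6) was thus also above that of nucleotides. Internal coding exons held 69.7% of NOVA1 and 66.8% of NOVA2 members, below their 78.3% and 79.4% of coding nucleotides.

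**Figure D4:**
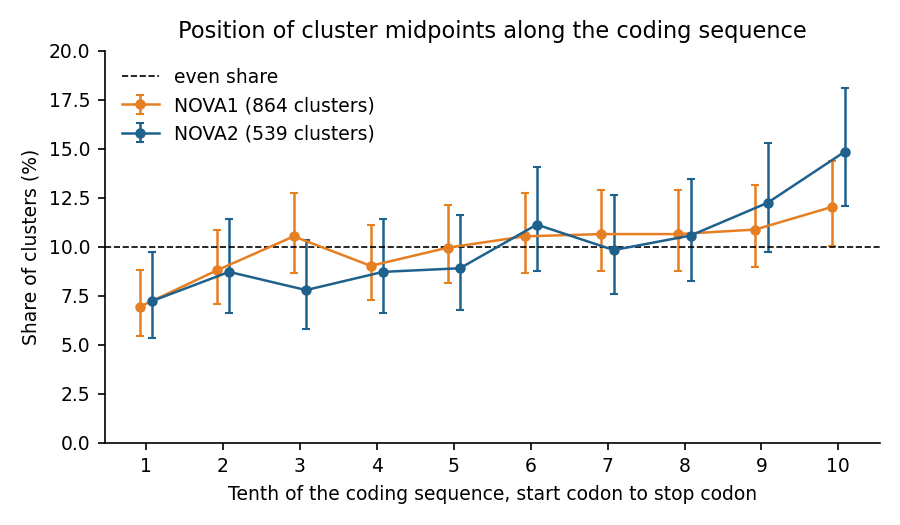
Share of members (y axis, percent) with their midpoint in each of 10 equal parts of the coding sequence (x axis, start codon to stop codon), with Wilson 95% intervals and a dashed line at an even share. A midpoint outside the CDS was set to the nearest coding edge. The first part held 6.94% of NOVA1 and 7.24% of NOVA2 members, and the last part 12.04% and 14.8%.

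A part of the members reached past a spliced edge of their coding exon, most of them by a few nucleotides. They were 199 NOVA1 members (23.0%) and 135 NOVA2 members (25.05%), a difference of 2.01 points (-2.53 to 6.69). Of these, 168 NOVA1 members (84.4%) and 82 NOVA2 members (60.7%) held only 1 to 6 nt of intron, 7 in each list held none, their nucleotides past the edge being of another class, and 13 and 28 held 20 nt or more. Tags of spliced mRNA aligned a few nucleotides past the junction were not told apart from unspliced RNA. For NOVA1, 135 crossed the 3' splice site before the exon and 80 the 5' splice site after it, and for NOVA2 77 and 70. Unshared NOVA2 members crossed a splice site more often than shared ones, 30.7% against 21.3% (the shared share was lower by 9.40 points, -9.40, interval -17.1 to -1.90). Intron of 20 nt or more was held by 20 of the unshared and 8 of the shared ones. For NOVA1 the shares were 24.6% in shared and 22.1% in unshared members (2.56, -3.15 to 8.50).

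Exons that some other coding transcript of the gene splices over, called cassette exons here although a few are alternative first or last exons, held 62 NOVA1 members (7.18%, 5.64 to 9.09) and 49 NOVA2 members (9.09%, 6.94 to 11.8). Such exons made up 9.90% and 8.08% of the coding nucleotides of the same transcripts. In the NOVA2 list, 29 of 215 unshared members (13.5%) and 20 of 324 shared members (6.17%) were in them, a difference of -7.32 points (-13.0 to -2.27). The difference was not seen among clusters with at least 90% of their nucleotides in CDS, where the shares were 5.23% and 5.17%, and in the transcript with the longest CDS it was -2.15 points (-7.28 to 2.32). With that filter 5.19% of all NOVA2 members were in cassette exons, below the share of nucleotides.

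Of the 4 cassette exon members with most tags, 2 in the NOVA1 list and 3 in the NOVA2 list were shared. Exon 2 of 7 of Tmem30a, a subunit of lipid flippases, had 69 NOVA1 and 80 NOVA2 tags, and exon 3 of 16 of Acsl3, an acyl-CoA synthetase gene whose CDS begins there, had 54 and 92. Exon 13 of Trp53bp1 had 102 NOVA2 and 19 NOVA1 tags, and the NOVA2 cluster held 102 nt of the exon and 63 nt of the intron before it. Mtss1 had 83 NOVA2 tags and no NOVA1 cluster. Nisch, which encodes nischarin, an integrin-binding protein, had 46 NOVA1 tags in exon 16 of 21 and no NOVA2 cluster. In Pcdhgc5, a gamma-protocadherin, 55 NOVA1 tags lay in a first exon, which counted as spliced over because other transcripts join past it.

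Of 9 genes taken from those whose splicing the study examined, 3 had a NOVA1 member and 1 had a NOVA2 member. Of all coding genes, 2.29% and 1.88% had one. The list does not hold every gene that the study examined, and as a choice of the study it is not independent evidence. In Neo1, a netrin and RGM receptor, the NOVA2 cluster (chr9:58732275-58732483) covered all 159 nt of the cassette exon 26 of 29 and crossed both splice sites, with 64 tags and 15 copies of YCAY. The NOVA1 cluster on the same exon had 15 tags. Neo1 also held a NOVA1 member in exon 27 (10 tags) and a NOVA2 member in exon 17 (15 tags), each unshared. Epha5, an ephrin receptor, held NOVA1 members in exons 7 and 3 (19 and 10 tags), and Agrn, which encodes the synapse organiser agrin, in exons 5 and 22 (15 and 10 tags). Neither gene had a NOVA2 member. In Dcc, Robo2, Slit2, Arhgef12, Ppp3cb and Rock1 no member of either list was found. This concerns clusters in CDS alone: with clusters of any class counted, all 9 genes held a NOVA2 cluster and 8 a NOVA1 cluster.

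The YCAY motif separated the unshared NOVA1 members from the other sets. Motifs were counted on the cluster strand, overlapping ones included, per 1000 start positions in the CDS of the members, and compared with the CDS of the same genes outside all clusters. Shared NOVA1 members had 42.0 per 1000 (Wilson 95% interval 40.3 to 43.8), 2.17 times the background. Unshared NOVA1 members had 25.4 (24.4 to 26.5), 1.35 times. Shared NOVA2 members had 47.7 (45.6 to 49.9) and unshared ones 50.8 (47.9 to 54.0), 2.44 and 2.50 times. The intervals of the unshared NOVA1 set did not meet those of any other set.

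**Figure D5:**
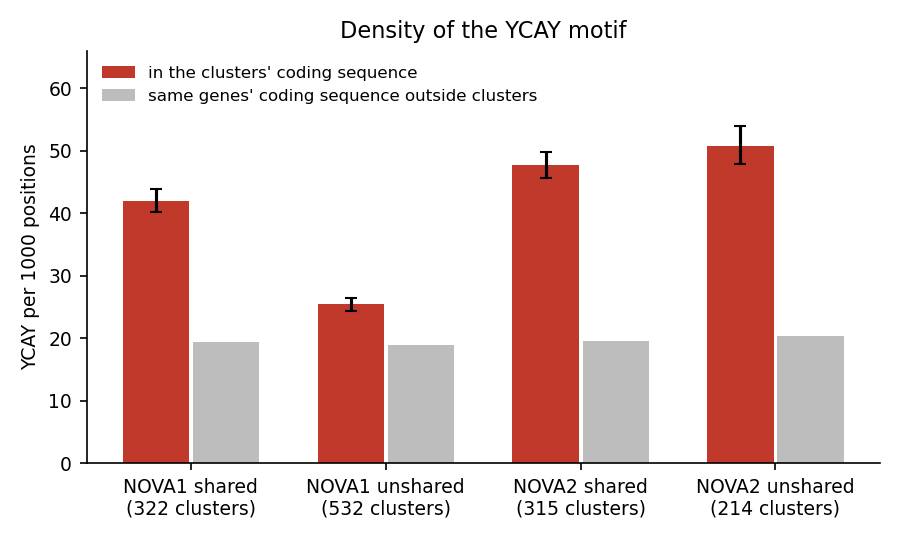
YCAY per 1000 start positions (y axis) in the coding sequence of shared and unshared members of each list (red bars, Wilson 95% intervals) and in coding sequence of the same genes outside clusters (grey bars). The background was between 18.8 and 20.3 in all 4 sets, and the unshared NOVA1 members lay at 25.4.

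The weaker enrichment held at high tag counts. At 30 or more tags the fold was 1.18 (1.04 to 1.34, 46 clusters) for unshared and 2.09 (1.964 to 2.226, 110 clusters) for shared NOVA1 members, and 2.94 (2.52 to 3.43, 21 clusters) for unshared NOVA2 members. No YCAY at all was found in 41 of 535 unshared NOVA1 members (7.66%), in 2 of 329 shared ones and in 2 of 539 NOVA2 members. None of the unshared NOVA2 members lacked it, 0 of 215, which allows a share of up to 1.395%. Windows of 120 nt were taken only from members with at least 120 nt of CDS in their exon. At least 3 copies stood in 61.7% of 332 such unshared and 89.0% of 182 such shared NOVA1 members. For NOVA2 the shares were 95.9% of 49 unshared and 93.6% of 141 shared members. In windows of the same genes outside clusters they were 38.0% to 38.8%. Whole clusters of all members, which differ in width, held 3 or more copies in 65.2% of unshared and 89.7% of shared NOVA1 members. For NOVA2 these were 82.8% and 85.8%.

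Over all tetramers, UCAU and CAUC led in shared NOVA1 members (log2 fold 1.74 and 1.68 over the background), in shared NOVA2 members (2.003 and 1.872) and in unshared NOVA2 members (1.95 and 1.75). In unshared NOVA1 members the leading tetramer was CGCU (0.64), followed by UCAU (0.60), CGCA (0.60), CCGC (0.58) and GCGU (0.57), so that 4 of the first 5 contained CG. The GC content of these members was 55.0% against 56.0% in their background, and that of unshared NOVA2 members 49.1% against 51.5%. Among the 4 YCAY words, CCAC had the smallest log2 fold in shared members, 0.51 for NOVA1 and 0.56 for NOVA2.

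The codon position of YCAY differed from the background mainly in unshared NOVA1 members. In nuclear genes, 50.6% of motifs in shared NOVA1 members began at the second codon position, against 51.0% in the background, and 48.8% against 48.96% in unshared NOVA2 members. In unshared NOVA1 members the share was 58.9% (56.7 to 61.0) against 52.9%. The third codon position held 26.8% (24.8 to 28.8) in shared NOVA1 members against 24.4%, and 27.2% (25.1 to 29.3) in shared NOVA2 members against 24.5%. The codons in the clusters also differed from those of the same genes. In shared NOVA2 members histidine codons, CAU and CAC, were 2.28 times as frequent as in the background and isoleucine codons 1.65 times, while glutamate codons stood at 0.46 times. Each YCAY that begins at the third codon position holds a histidine codon, so the histidine fold is not independent of the motif density. In unshared NOVA1 members the same folds were 1.16, 1.19 and 0.79.

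Counted by gene, NOVA1 members were more often grouped than NOVA2 members. A single member was found in 351 of 512 NOVA1 genes (68.6%) and 338 of 420 NOVA2 genes (80.5%), and 64 and 25 genes held 3 or more. Members of both lists were found in 270 genes, 52.7% of the NOVA1 genes and 64.3% of the NOVA2 genes. The longest CDS of the genes with members had a median of 2557.5 nt for NOVA1 and 2388 nt for NOVA2, against 1131 nt over all 22372 coding genes, so that long coding sequences were over-represented. Of genes with any NOVA1 cluster 18.2% had a CDS member, and of those with any NOVA2 cluster 8.35%.

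The genes with most NOVA1 members had long coding sequences and few NOVA2 members. Dync1h1, the heavy chain of cytoplasmic dynein, held 14 NOVA1 members with 328 tags, 13 of them unshared, and 1 NOVA2 member. Apc2, a microtubule-binding relative of the APC protein, held 12 NOVA1 members, Lphn1 (latrophilin, an adhesion receptor) 11 and the lipoprotein receptor gene Lrp1 11, all unshared, with no NOVA2 member in any of the 3. Mtap1b differed, with 11 NOVA1 members, 6 of them unshared, and 5 NOVA2 members. It also had 9 NOVA1 and 13 NOVA2 clusters in 3' UTR.

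For NOVA2 the leading genes were bound by both proteins. D630045J12Rik held 5 NOVA2 members with 955 tags and 6 NOVA1 members with 462 tags, and Mll5 (Kmt2e), a gene of the MLL family of chromatin proteins, 5 members in each list with 367 NOVA2 and 150 NOVA1 tags. All members of these genes were shared. The mitochondrial gene mt-Nd5 held 4 NOVA2 and 6 NOVA1 members, and Atn1 (atrophin) 4 and 6. Auts2, a neurodevelopmental gene, had 3 NOVA2 members with 91 tags and no NOVA1 member, in a gene with 168 NOVA2 and 30 NOVA1 intron clusters. Gm10800 and Gm10801 held 4 and 3 NOVA2 members in a repeated stretch of chromosome 2 with 177 to 458 further copies of each cluster, and their counts cannot be tied to that place.

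Lists of gene function gave the following counts, beside 2.29% of all coding genes with a NOVA1 member and 1.88% with a NOVA2 member. Of 47 cytoskeletal genes, 20 had a NOVA1 and 16 a NOVA2 member. In this group Mtap2 had 320 NOVA1 tags in 1 member, and Tubb5, a beta-tubulin, 225 NOVA1 and 41 NOVA2 tags. Actb, the cytoplasmic beta-actin, had 232 and 144. Its one-to-one pair with 87 NOVA1 and 96 NOVA2 tags had 6 further copies in the genome. Of the 60 NOVA1 members in cytoskeletal genes 37 were unshared, and of the 28 NOVA2 members 4. The lists hold genes of the nervous system that are abundant in cortex, and a share above that of all coding genes was not compared with genes of like expression or length.

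Among 47 ion channel and transmitter receptor genes, 18 had a NOVA1 and 12 a NOVA2 member, among them Gabbr1, a GABA-B receptor subunit, with 124 NOVA1 and 45 NOVA2 tags. Of 50 axon guidance genes 12 and 7 had one. In that group Efnb2, an ephrin ligand, had 209 NOVA1 and 201 NOVA2 tags at 1 shared member in each list. The plexin genes Plxna1, Plxna2, Plxna4 and Plxnb2 had NOVA1 members only, all unshared, while Plxnc1, which is not in the list, had 2 NOVA1 members, 1 of them shared with a NOVA2 member (11 and 14 tags). Of 42 genes of vesicle release and synaptic scaffolds 9 and 5 had a member, with Shank1 far above the rest at 595 NOVA1 and 686 NOVA2 tags.

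Of 48 chromatin and transcription regulators 13 had a NOVA1 and 13 a NOVA2 member, with 421 NOVA1 and 778 NOVA2 tags, the only one of the 9 lists with more NOVA2 than NOVA1 tags. It held Mll5 and its relative Mll1 (Kmt2a, 40 NOVA1 and 54 NOVA2 tags). Of 56 genes of RNA-binding proteins 6 and 5 had a member. Among these were Srrm2, a spliceosome-associated protein (194 and 161 tags), Tardbp, which encodes TDP-43 (29 and 103 tags, at the end of the CDS of a 6-exon transcript, with 3 further copies), and Ptbp2, a neuronal splicing repressor (19 and 13). Of 46 translation genes 4 and 4 had one, with Eef2, the elongation factor that moves the ribosome, at 9 NOVA1 members (321 tags, 7 unshared) and 2 NOVA2 members (27 tags). Of the 13 protein genes of the mitochondrial chromosome, the same 6 had members in both lists.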

How the data were processed

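HITS-CLIP tags of NOVA1 and NOVA2 (3 libraries per protein) were processed by the authors. Per their methods and processing notes, reads were aligned with Novoalign to mm9 (versions and use of spliced alignment are not given in the sources used here), PCR duplicates were collapsed and clusters were kept with 10 or more tags and at least 2 of 3 libraries. The deposited values are counts, 1 pooled whole number per cluster, not scaled to depth. The study defines its minimum of 10 tags as peak height, and 10 is also the lowest deposited count, so that a count here can be the peak height of a cluster rather than all of its tags. Library depth is not held in the lists.

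Each nucleotide of a cluster took 1 class on its strand from GENCODE vM1: CDS before UTR, UTR before noncoding exon, and intron after these. The exon position used the coding transcript with most CDS in the cluster. The motif background used genes with at least 200 nt of CDS outside clusters. Further copies were BLAST+ 2.17.0 matches with 90% identity or more that covered 50% of the cluster or more. Python 3.11.15, NumPy 2.4.6, SciPy 1.17.1 and pysam 0.24.0 were used, and the functions were tested on simulated data. Shares carry Wilson intervals, their differences Newcombe intervals and medians order-statistic intervals. For a count of 0, the share said to be allowed is instead 3 divided by the number of clusters. With no value per library no p-value was computed.

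Named clusters were, per list, the 6 highest, the 5 highest without overlap and the 4 highest in cassette exons, then the 4 highest and 4 lowest tag ratios, the 5 genes with most members, the members in 9 genes of the study, and leading genes of each list. Tubb5, Actb, Gabbr1, Tardbp, Ptbp2, Mll1, Auts2, Atn1, Gm10800, Gm10801 and the plexins other than Plxna1 were named after their values were seen. The members and gene lists were chosen with earlier results of these data known.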

Additional observations from a re-analysis of the deposited data

How the results depend on the processing

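Of 93 alternative values of 16 results, 70 stayed within the interval of the main value (counts within 1.5 times), 23 moved and 0 changed sign. Only the tag ratio of the CDS pairs and the difference in cassette share could change sign. The other results are counts, shares or folds, which are never negative. At 20 or more tags in both lists there were 287 NOVA1 and 235 NOVA2 members, the shares that overlapped the other list were 43.2% and 53.6%, and 20.6% of NOVA1 members lay in the last coding exon. With the NOVA2 list at 25 or more tags the overlap shares were 19.3% and 83.0%, and with NOVA2 cut to as many clusters as NOVA1 has 15.05% and 85.5%. With 1 cluster per gene the NOVA1 share was 45.7% and the YCAY fold of unshared NOVA1 members 1.41. With both clusters at 20 or more tags the CDS pairs lay 1.04 above all pairs. Against flanks 200 to 500 nt away the YCAY fold was 2.07 for shared NOVA1 and 2.68 for unshared NOVA2 members. Against the rest of the same coding exon it was 1.90 for shared NOVA1, 2.19 for shared NOVA2 and 2.27 for unshared NOVA2 members. With at least 90% of the cluster in CDS, the last coding exon held 14.1% of NOVA1 and 18.4% of NOVA2 members, and 19.05% and 5.19% of NOVA2 members reached a splice site and lay in a cassette exon. The difference in cassette share between shared and unshared NOVA2 members was then -0.060 points, and -2.15 points in the transcript with the longest CDS, both chosen after seeing the data. The share of NOVA2 members in cassette exons, above the 8.08% of nucleotides in such exons, was below it under both settings (5.19% and 7.10%). The first setting removes clusters partly in intron or UTR by its construction. The cause of the other changes was not tested.

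No paired analysis was possible because each cluster carries 1 count for the 3 libraries together, and leaving out a library was not possible. The lists begin at 10 tags, and NOVA1, with fewer tags in all, is the shallower list. A cluster absent from a list is one below that threshold or not found in at least 2 libraries.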
